A study of Mus musculus with 6 samples.

Results

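The genes described here are 10 loci that mark enteroendocrine cells, the hormone-secreting cells scattered singly through the intestinal epithelium. They were picked by name as products of that lineage, and no measured value of a gene entered the rule. Chga and Chgb encode chromogranins, acidic proteins that pack the secretory granule. Cck, Gip, Sct, Gcg, Pyy, Tac1 and Sst encode precursors of peptide hormones, and Tph1 encodes the enzyme that begins serotonin synthesis outside the brain. The 10 genes were read against all 21911 protein-coding genes of the annotation. For each gene, every peak whose summit lay in the gene body or up to 10 kb beyond either end was taken, which gave 87 of the 302463 peaks in the 6 lists.

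The study asked how loss of Arid3a, which encodes a transcription factor that binds A+T-rich DNA, changes open chromatin in intestinal crypts, the pits of the epithelium that hold stem cells and dividing progenitors. ATAC-seq was run on 3 wild-type (WT) and 3 Arid3a conditional knockout (cKO) samples. The cKO animals carried floxed Arid3a alleles and a tamoxifen-inducible Cre under the Villin promoter, which is active in the intestinal epithelium and not in the stroma. WT and cKO animals alike had tamoxifen daily for 3 days, and crypts were taken 1 month after the first injection. For crypt dissociation, the study's ATAC-seq methods refer to a protocol that harvests crypts from the proximal jejunum. Crypts were dissociated to single cells and were not sorted, so each list is a mixture of all epithelial cell types in the crypt. Ages and sexes of the animals were not given in the sources used here. Nothing in the labels says which samples came from which animals, so the p-values below measure the spread between samples.

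Enteroendocrine cells descend from crypt progenitors that switch on Neurog3, and then divide into subtypes named for their main hormone. They are a small minority of the epithelium. ATAC-seq uses a transposase that inserts into accessible DNA, and a peak marks a place with more inserted fragments than the surrounding background would give. In a mixed sample, a weak peak at such a gene cannot be told apart between a few cells with open chromatin and many cells with little. A missing peak says that none was called at this depth and not that the chromatin was closed.

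The lists held 40492 to 55091 peaks in WT and 46415 to 58297 in cKO, with WT 1 and cKO 2 the shortest. The genome-wide background recovered from the lists was 1.75 to 2.29 fragments per base. A promoter peak at Arid3a was called in all 6 lists, and its highest window peak ranked at percentiles of 92.8 to 97.3, so these lists do not check the genotype labels. Of 10 genes of the crypt epithelium, 6 had a promoter peak in every list and 4 in some. None of 6 leukocyte genes had one in any list, against 3 of 8 neuronal, 1 of 5 glial and 2 of 6 stromal and endothelial genes in every list. Over all protein-coding genes the shares were 44.5% in every list and 38.3% in none. Of the 6 leukocyte genes, 2 had a peak within 10 kb of the gene body or inside it in every list. Among 8 genes of other organs, 1 (Tnnt2, of cardiac muscle) was also called in every list.

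Promoter sequences came from RefSeq on GRCm38, which held 12 annotated starts for the 10 genes, and the 250 bases before a start are printed 5′ to 3′ on the strand of the gene. A first set contrasts starts rich and poor in CpG, the dinucleotide that DNA methylation targets and that clusters at many constantly open promoters. CpG dinucleotides are in capitals. Chga (chr12:102554691-102554940, plus strand) has 16, Tac1 (chr6:7554811-7555060, plus strand) has 17, Gip (chr11:96024295-96024544, plus strand) has 1 and Gcg (chr2:62483654-62483903, minus strand) has 7.
Chga: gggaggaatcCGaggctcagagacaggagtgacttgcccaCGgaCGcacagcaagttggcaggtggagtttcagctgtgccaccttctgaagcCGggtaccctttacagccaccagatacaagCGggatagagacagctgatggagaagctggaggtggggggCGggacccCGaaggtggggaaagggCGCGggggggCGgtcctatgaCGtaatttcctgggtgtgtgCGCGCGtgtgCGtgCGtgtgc
Tac1: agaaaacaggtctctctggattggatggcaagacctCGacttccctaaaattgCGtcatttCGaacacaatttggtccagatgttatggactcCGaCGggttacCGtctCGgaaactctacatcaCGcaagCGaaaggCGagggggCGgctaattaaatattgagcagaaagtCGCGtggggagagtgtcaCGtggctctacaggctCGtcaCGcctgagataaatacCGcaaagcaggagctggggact
Gip: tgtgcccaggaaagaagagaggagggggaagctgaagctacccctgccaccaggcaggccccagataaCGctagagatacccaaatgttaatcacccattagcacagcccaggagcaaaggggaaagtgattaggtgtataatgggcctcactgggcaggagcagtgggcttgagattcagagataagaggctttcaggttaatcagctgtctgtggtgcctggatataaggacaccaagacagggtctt
Gcg: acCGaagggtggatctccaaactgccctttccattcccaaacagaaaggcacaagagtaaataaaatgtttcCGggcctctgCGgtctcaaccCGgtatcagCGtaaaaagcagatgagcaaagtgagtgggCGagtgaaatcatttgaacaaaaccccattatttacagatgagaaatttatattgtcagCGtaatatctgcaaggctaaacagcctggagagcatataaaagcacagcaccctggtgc

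The next set shows the only 2 of the 12 starts that held the cyclic AMP response element TGACGTCA, the site bound by CREB-family factors, on either strand. The element is in capitals and begins 72 bases before the start of Chgb (chr2:132781392-132781641, plus strand) and 48 bases before that of Sst (chr16:23890845-23891094, minus strand). It was present at 2.31% of all 20150 RefSeq starts of protein-coding genes.
Chgb: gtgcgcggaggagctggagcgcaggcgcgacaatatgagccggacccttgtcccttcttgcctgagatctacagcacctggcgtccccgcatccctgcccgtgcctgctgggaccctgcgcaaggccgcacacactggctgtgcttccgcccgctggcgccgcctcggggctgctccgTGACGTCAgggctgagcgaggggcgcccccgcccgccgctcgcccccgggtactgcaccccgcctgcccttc
Sst: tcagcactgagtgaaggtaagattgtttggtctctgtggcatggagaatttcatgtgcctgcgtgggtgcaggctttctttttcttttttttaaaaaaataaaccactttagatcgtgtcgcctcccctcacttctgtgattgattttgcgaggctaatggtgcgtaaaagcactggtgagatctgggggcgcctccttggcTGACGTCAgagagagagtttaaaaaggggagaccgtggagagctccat

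Of the 10 genes, 9 had a peak somewhere in the window in at least 1 list, and Gcg had none in any list. Chga, Gip, Sct, Pyy, Tac1 and Tph1 had a window peak in all 6 lists, which is 6 of 10 against 70.5% of all protein-coding genes. No window peak in any list was seen for 21.9% of all genes. Chgb and Cck were covered in 5 lists, missing WT 1, and Sst in 4, missing WT 1 and cKO 2. The short lists WT 1 and cKO 2 held 11 peaks each in the 10 windows, and the other 4 lists held 16 or 17. The part of list length in these gaps was not tested.

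**Figure D1:**
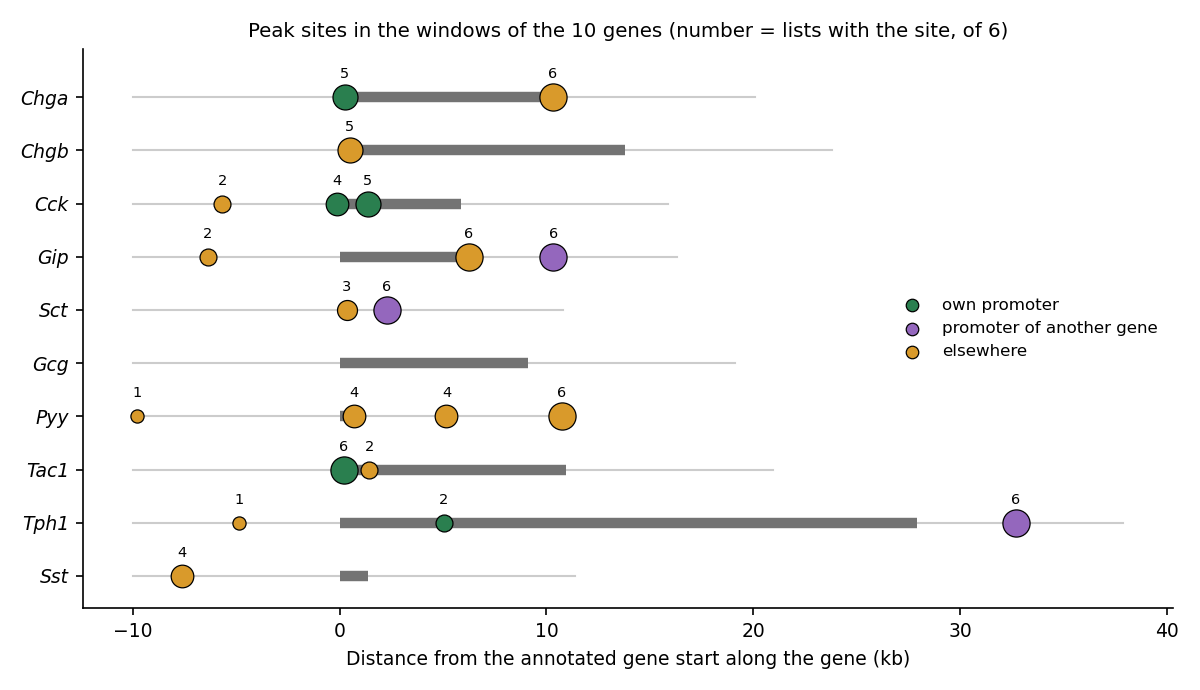
Peak sites around the 10 genes. The x axis is distance in kb from the annotated gene start in the direction of transcription, thick grey bars are gene bodies, thin lines are the windows, and each circle is a site numbered and sized by how many of the 6 lists held it (green, a summit in the promoter of the gene in at least 1 list, purple, the promoter of another gene, orange, elsewhere). Of 21 sites, 7 were in all 6 lists, and Gcg has none.

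Peaks at the hormone gene's own promoter were fewer. A promoter peak was counted when its summit lay from 1000 bp before to 100 bp after an annotated transcript start. By that rule Tac1 had a promoter peak in all 6 lists, Cck in 5, Tph1 in 2 (cKO 1 and cKO 3) and Chga in 1 (WT 1), and the other 6 genes in none. That is 1 of 10 genes in every list against 44.5% of all protein-coding genes, and 6 of 10 in no list against 38.3%. Within 500 bp on either side of a start, Tac1 had a summit in 6 lists, Chga, Chgb and Cck in 5, Pyy in 4, and Sct and Tph1 in 2. The background by that rule was 54.7% of genes in all 6 lists and 35.3% in none, against 1 and 3 of the 10 (Gip, Gcg and Sst). Lists of equal length or a −log10 q of at least 5 left no gene with a promoter peak in every list, and leaving out WT 1 added Cck.

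By the median over lists, the highest-ranking site in the windows of Tph1, Gip and Sct each belonged to the start of another gene. The site 32.70 kb from the Tph1 start lies at the promoter of Sergef, the one 10.34 kb from the Gip start at that of Snf8, and the one 2.29 kb from the Sct start at that of Cdhr5, a gene of the brush border. In WT 1 the Gip site in the last exon (59.1) ranked above the Snf8 promoter (55.4). In WT 2, WT 3 and cKO 1 a single called peak ran from the Cdhr5 start into Sct. With peaks at promoters of other genes left out, 4 of the 10 genes kept a window peak in all 6 lists, and Sct and Tph1 dropped to 3 lists each.

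Of the granule proteins, chromogranin A had the broader coverage. Chga (ENSMUSG00000021194.6, chr12:102554969-102565028, plus strand) had a site just inside the gene, 0.23 kb from its start in the first exon and intron, in 3 WT and 2 cKO lists. Its within-list percentile of fold, where 100 is the highest peak of the list, was 7.79, 46.4 and 56.0 in WT 1 to 3, and 54.0 in cKO 1 and 35.2 in cKO 3. The genotypes overlapped, and cKO 2 held no peak there. A second Chga site at 10.31 kb, at the 3′ end of the gene, was in all 6 lists at percentiles from 5.29 to 34.3.

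Chromogranin B had 1 site in a window of 33.8 kb. It lay 0.49 kb from the GENCODE start of Chgb (ENSMUSG00000027350.8, chr2:132781278-132795079, plus strand), and its summits fell 106 to 133 bases after the RefSeq start whose upstream sequence is printed above. In all 5 lists that held it the peak covered the cyclic AMP response element. The percentile was 62.2 and 69.8 in WT 2 and WT 3, and 85.0, 47.3 and 83.9 in cKO 1 to 3. Both WT values fell inside the cKO range. Without WT 1, the mean was 66.0 ± 5.39 (SD, n = 2) in WT and 72.0 ± 21.5 (SD, n = 3) in cKO, with an exact two-sided permutation p of 0.8.

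Among the hormones of the upper small intestine, cholecystokinin, which releases bile and pancreatic enzymes, was the only one of 3 with a promoter peak. Cck (ENSMUSG00000032532.7, chr9:121489824-121495694, minus strand) had a summit 79 to 178 bases before the start in WT 2, WT 3, cKO 1 and cKO 3, at percentiles of 43.2, 38.7, 52.4 and 57.3. Both cKO values were above both WT values, while WT 1 and cKO 2 held no peak there. At 2 against 2 lists the genotypes cannot be separated, and the share of all genes that split in this way was not counted. A weaker site at 1.35 kb, near an internal start, was in 5 lists at 11.2 to 18.5 in 4 of them and highest in cKO 1. Without WT 1 the highest Cck peak averaged 41.0 ± 3.20 (SD, n = 2) in WT and 42.8 ± 21.2 (SD, n = 3) in cKO, and the genotypes overlapped.

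Gip encodes the incretin of K cells, which raises insulin release after a meal. No summit lay within 500 bp of its start in any list (ENSMUSG00000014351.12, chr11:96024545-96030831, plus strand), and the 300 bases at its RefSeq start have a CpG observed to expected ratio of 0.05. Its steady site was at the other end of the gene, 6.23 kb from the start in the last exon, with percentiles of 59.1, 35.8 and 47.1 in WT 1 to 3 and 56.6, 38.8 and 33.4 in cKO 1 to 3. The genotypes overlapped across that range. A site 6.38 kb before the start was called in WT 2 and WT 3 and in no cKO list, at percentiles of 38.2 and 18.4 and with pileups of 14 and 11 fragments (exact Poisson 95% intervals 7.65 to 23.5 and 5.49 to 19.7).

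Sct encodes secretin, which drives bicarbonate secretion. The gene is 0.804 kb long (ENSMUSG00000038580.13, chr7:141278330-141279133, minus strand). A separate peak over it was called in WT 1, cKO 2 and cKO 3 at low fold percentiles of 13.2, 15.3 and 6.74. Its pileups there were 41, 57 and 89 fragments, over local backgrounds of 11.0, 14.3 and 27.5. Ranked by −log10 q, the same peaks were at percentiles of 45.1, 54.3 and 51.5. In the other 3 lists the merged Cdhr5 peak reached over the gene.

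The hormones of the lower gut differed from each other. The protocol cited for these crypts harvests proximal jejunum, so the lower gut may not be represented here. Gcg encodes proglucagon, the source of GLP-1 in L cells, and had 0 peaks in 29.1 kb in any of the 6 lists (ENSMUSG00000000394.15, chr2:62474530-62483650, minus strand). Pyy encodes peptide YY, which slows gut movement and is made by the same cells. Its window held 4 sites (ENSMUSG00000017311.15, chr11:102106676-102107832, minus strand). The one 10.75 kb from the Pyy start was by the median over lists the highest-ranking site outside promoters by the rule above, at 43.8, 77.6 and 75.6 in WT 1 to 3 and 83.3, 55.7 and 82.6 in cKO 1 to 3. The low value of each genotype was in the short list. The Chgb site at 0.49 kb ranked above it in cKO 1 and cKO 3. The nearest protein-coding start to that site was that of Ppy, which encodes pancreatic polypeptide and lies beside Pyy. Another intergenic site at 5.16 kb was in 1 WT and 3 cKO lists at 22.5 to 52.0, and a site inside Pyy at 0.68 kb was in 4 lists at 8.29 to 23.9.

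Of the genes of serotonin-making enterochromaffin cells, Tac1 had a promoter peak in all 6 lists and Tph1 in 2. Tac1 encodes the precursor of substance P, which enteric neurons also make (ENSMUSG00000061762.12, chr6:7554879-7565834, plus strand). Its promoter peak was at 25.03, 32.6 and 22.8 in WT 1 to 3 and 23.3, 26.5 and 20.7 in cKO 1 to 3. The genotypes overlapped in that range, and all 6 values lay in the lower part of the list. The pileup at these summits was only 11 to 14 fragments, and in WT 1 a further summit rested on 9 fragments (exact Poisson 95% interval 4.12 to 17.1). The highest promoter summits lay −344, −148 and 62 bp from the annotated gene start in WT 1 to 3. In cKO 1 to 3 they lay 466, 209 and 484 bp from it. The further WT 1 summit lay at 213 bp, beside that of cKO 2. With the gene's 5′ end as the only start, the promoter peak counted in 3 WT and 0 cKO lists. The share of all genes that split in this way was not counted. A summit at 1.44 kb was called in WT 1 and WT 3 and in no cKO list, but the promoter peak of cKO 3 (chr6:7555157-7556474) ran over that place.

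Tph1 spans 27.9 kb (ENSMUSG00000040046.14, chr7:46644641-46672537, minus strand) and has an upstream and an internal RefSeq start 5160 bases apart. No summit lay within 500 bp of the upstream start. At the CpG-rich internal start, cKO 1 and cKO 3 had peaks at percentiles of 13.9 and 19.3 with pileups of 11 and 12 fragments, and no WT list had one. At 0 of 3 against 2 of 3 lists the genotypes cannot be separated.

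Sst encodes somatostatin, the inhibitory hormone of D cells and also a neuropeptide (ENSMUSG00000004366.4, chr16:23889573-23890958, minus strand). No summit lay within 500 bp of its start and no peak covered the element printed above in any list. Its only site, 7.62 kb before the start, was at 25.4 and 35.9 in WT 2 and WT 3 and at 44.6 and 20.7 in cKO 1 and cKO 3. The WT values lay inside the cKO range.

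**Figure D2:**
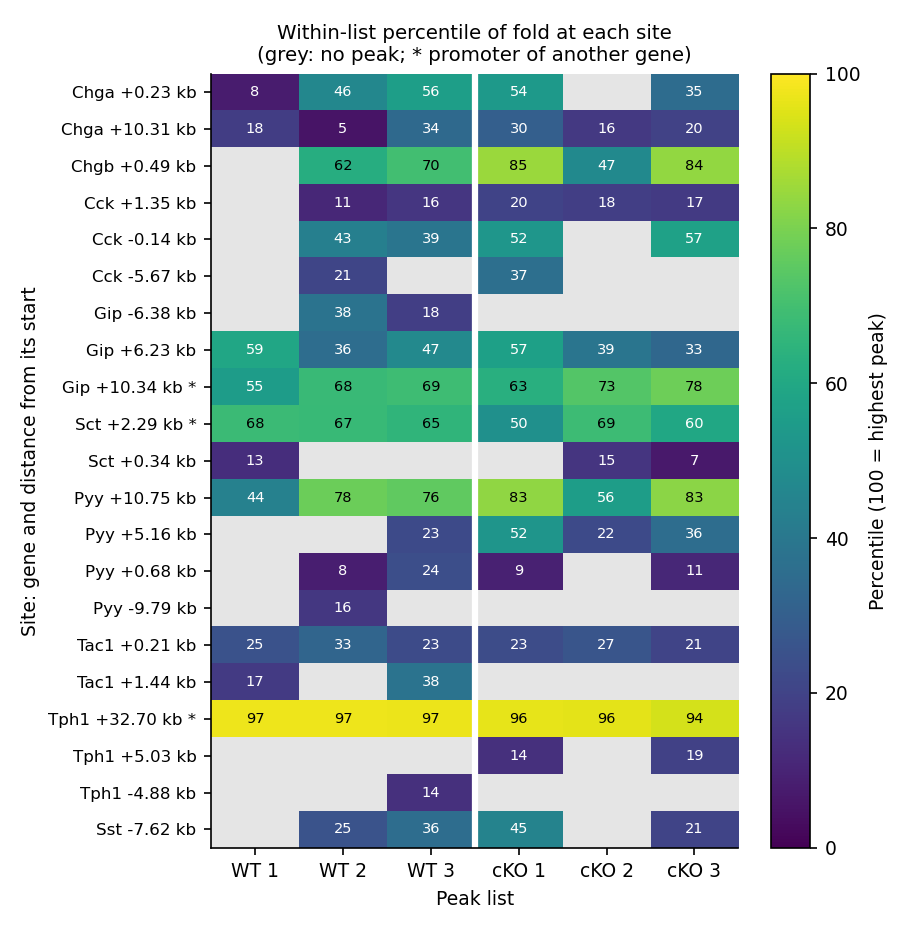
Within-list percentile of fold at the 21 sites. Each cell is 1 site in 1 of the 6 lists, colour and number give the percentile (100 is the highest peak of that list), grey cells had no peak and asterisks mark sites at the promoter of another gene. The Sergef promoter in the Tph1 window stays at 94 to 97, while most sites at the hormone genes themselves are under 60.

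The genotypes were compared by the highest peak of each window, for the 15457 protein-coding genes with a window peak in all 6 lists. The 6 of the 10 genes in that set had differences (cKO minus WT, in percentile points) of −8.38 for Tac1, −7.41 for Sct, −5.02 for Chga, −1.92 for Tph1, 6.18 for Gip and 8.18 for Pyy. None passed the test. The exact two-sided permutation test of 3 against 3 cannot go below 0.1, so no unadjusted p under 0.05 was possible. The p-values were 0.1 for Tph1, 0.2 for Tac1, 0.4 for Gip and Sct, 0.5 for Pyy and 0.7 for Chga, and 0.836 to 0.932 after Benjamini-Hochberg adjustment over all genes. By limma on normal scores of the percentiles, 0 genes of 15457 passed an adjusted p of 0.05 and 5.66% had an unadjusted p under 0.05. The 6 genes had unadjusted limma p-values from 0.169 to 0.671.

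Tph1 was the only one of the 6 whose lists did not overlap, with 97.3, 97.3 and 97.2 in WT 1 to 3 against 96.4, 96.0 and 93.6 in cKO 1 to 3. All of these values are of the Sergef promoter peak. Over all genes, the cKO lists were entirely below WT for 6.83% and entirely above for 4.02%, beside 1 and 0 of these 6. The other 5 overlapped. For Tac1, WT was at 25.03, 32.6 and 38.1 and cKO at 23.3, 26.5 and 20.7. For Gip, WT was at 59.1, 67.7 and 69.1 and cKO at 62.9, 73.4 and 78.1, all but WT 1 from the Snf8 promoter. For Sct, WT was at 68.1, 67.3 and 65.4 and cKO at 50.4, 68.5 and 59.6. The peaks behind the Gip and Sct values therefore lay mostly at other genes. For Chga, WT was at 18.2, 46.4 and 56.0 and cKO at 54.0, 16.4 and 35.2, where WT 1 and cKO 2 are values of the site at 10.31 kb and the other 4 of the site at 0.23 kb. The Tac1 value of WT 3 is that of the site at 1.44 kb. The Pyy values are those of the site 10.75 kb away.

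Single lists carried part of these differences. Without WT 1, the sign for Pyy turned to −2.75 and Tac1 no longer overlapped (35.3 ± 3.92, SD, n = 2, in WT and 23.5 ± 2.95, SD, n = 3, in cKO, exact permutation p = 0.1). At the Tac1 promoter site alone, WT 2 and WT 3 (32.6 and 22.8) overlapped with cKO, and the difference over all lists was −3.28 in place of −8.38. Without cKO 2, Sct, Pyy, Tac1 and Tph1 did not overlap, with Pyy the only one of these higher in cKO, and the sign for Chga turned to 4.35. Without cKO 1, Gip (higher in cKO) and Tph1 (lower) did not overlap. The same shares over all genes were 14.2% lower and 5.68% higher in cKO without WT 1 (2 and 0 of 8 members), 24.2% and 15.2% without cKO 2 (3 and 1 of 6), and 10.8% and 6.21% without cKO 1 (1 and 1 of 6). Without WT 3, Chga turned to 2.89. WT 1 and cKO 2 were the shortest lists of their genotype, and the part of that in these shifts was not tested.

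Taken peak by peak, overlapping peaks were merged across lists into 71286 consensus peaks, of which 32748 had a peak in every list. Of these, 4.66% ranked higher in every cKO than in every WT list and 7.04% lower. In the windows of the 10 genes, 7 consensus peaks were in all 6 lists, and 1 of them, at the Sergef promoter, ranked lower in every cKO list. The other 6 had differences from −7.41 to 8.18 points and exact permutation p-values of 0.4 to 0.9.

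**Figure D3:**
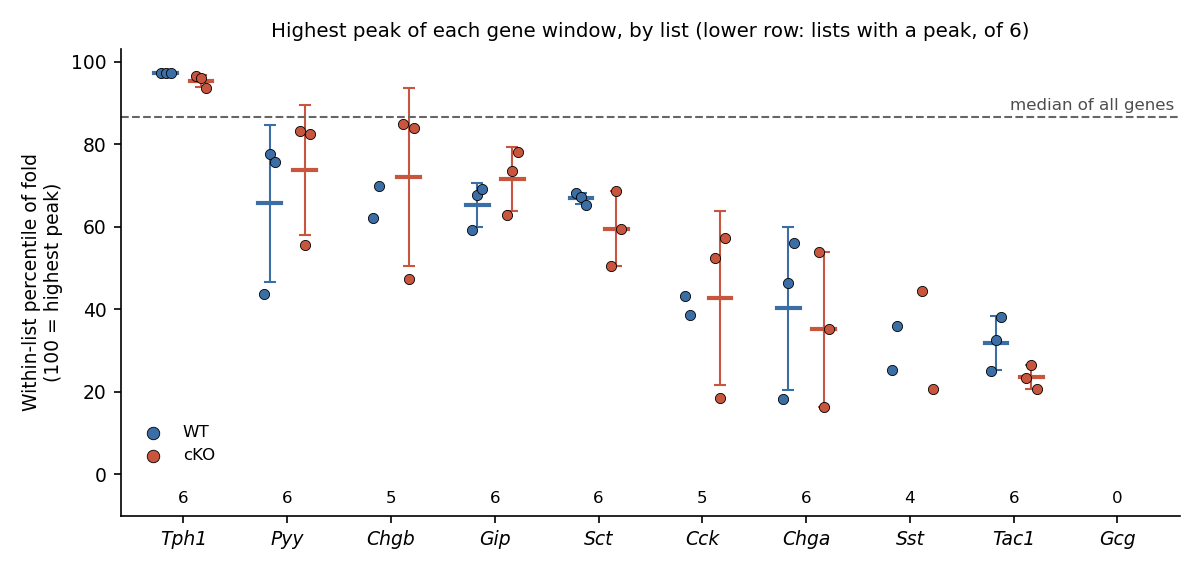
Highest peak of each gene window by genotype. Points are lists (blue, WT, red, cKO), bars and whiskers are the mean and SD for genotypes with a peak in all 3 lists, the row of numbers gives how many of the 6 lists had a peak, and the dashed line is the median of 15457 genes. Only the Tph1 window, through the Sergef promoter, is above the line, and WT and cKO points overlap for every other gene with 6 lists.

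In rank order of the median over lists, the highest window peak was at 96.8 for Tph1, 76.6 for Pyy, 69.8 for Chgb, 68.4 for Gip, 66.3 for Sct, 43.2 for Cck, 40.8 for Chga, 30.6 for Sst and 25.8 for Tac1. Only Tph1 and Pyy were neighbours in that order whose ranges did not overlap. The median over all genes with 6 lists was 86.7. The windows were 20.8 to 47.9 kb long, and a longer window can hold more peaks. Outside the promoters of other genes, the 69 peaks in the windows had a median percentile of 30.1 and pileups of 9 to 89 fragments, with a median of 19.

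The RefSeq starts with peaks were mostly CpG-rich. With a CpG observed to expected ratio of at least 0.6 over the 300 bases at a RefSeq start as CpG-rich, 6 of the 12 starts qualified, near the 49.1% of all starts. They were Chga (0.76), Chgb (0.80), Sct (0.72), Tac1 (1.01), the internal Tph1 start (0.77) and Sst (0.71). A summit within 500 bp was called in at least 2 lists at 5 of these 6, Sst being the exception. Of the 6 CpG-poor starts, at Cck (0.38), Gip (0.05), Gcg (0.42), Pyy (0.29 at both) and the upstream Tph1 start (0.33), only Cck had such a summit. By the GENCODE transcript starts used for the earlier 500 bp counts, Pyy had a summit as well, in 4 lists. Over all RefSeq starts, a summit within 500 bp in at least 1 list was called at 91.1% of CpG-rich and 32.0% of CpG-poor starts. Here the counts in at least 1 list were 5 of 6 and 1 of 6, in the direction of genes at large. In all 6 lists the shares over all starts were 79.0% and 20.2%. Only Tac1 of the 6 CpG-rich starts, and no CpG-poor start, reached all 6 lists. These counts describe 12 starts that share the same 6 libraries, and no test was made of them.

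**Figure D4:**
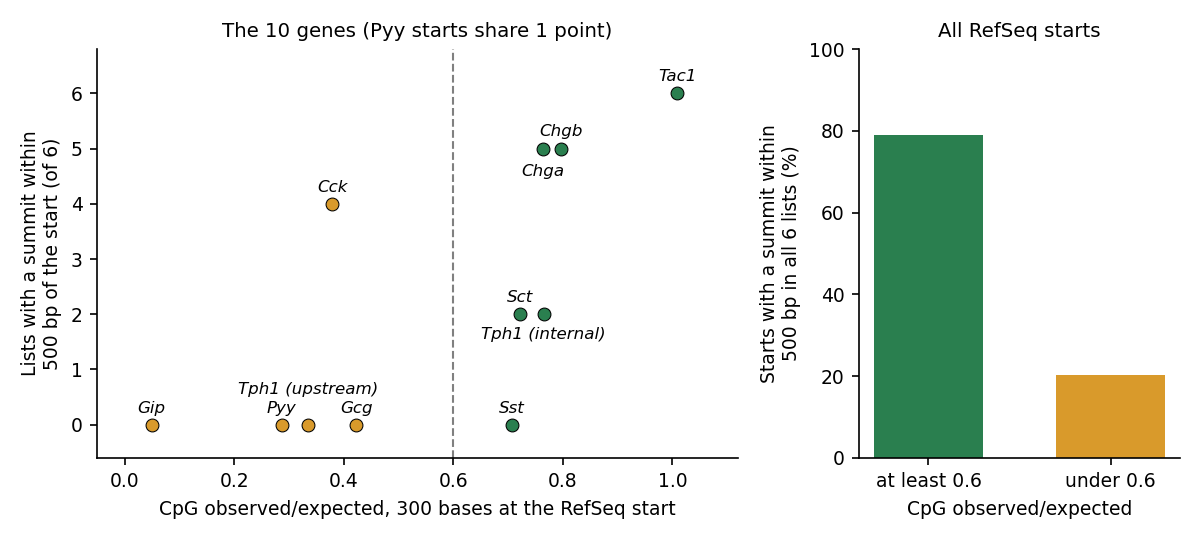
CpG content and peaks at the starts. Left, each point is a RefSeq start of the 10 genes, with the CpG observed to expected ratio of 300 bases on the x axis and the number of the 6 lists with a summit within 500 bp on the y axis (dashed line, 0.6, green, CpG-rich). Right, bars give the percentage of all starts with such a summit in all 6 lists, 79.0% of CpG-rich and 20.2% of CpG-poor starts.

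Motifs were sought on both strands, without mismatch, in the 201 bases centred on each of the 21 sites. AP-1 (TGACTCA) was found at 1 site, the one 6.38 kb before Gip, and 7.55% to 8.95% of all peaks of a list held it. HNF4 (CAAAGTCCA or CAAAGTTCA) was at 0 sites, against 2.26% to 2.75% of all peaks. The short A+T-rich ARID3 motif (ATCAAA or ATTAAA) was at 1 site, the internal Tph1 start, against 14.1% to 16.1%. The GATA-factor motif, searched as AGATAA and as TGATAA, was at 4 sites against 17.8% to 20.7% of all peaks. The motif of CDX factors, which set intestinal identity, was searched as CAATAAA and as CCATAAA and was at 2 sites against 7.99% to 8.66%. The shorter element CGTCA, part of TGACGTCA, was at 7 of 21 sites against 12.7% to 14.8% of all peaks. No site held TGACGTCA itself. The sites with CGTCA included both Cck sites near its starts, the Tac1 promoter, the internal Tph1 start and a site upstream of Pyy. The others were at promoters of other genes, Snf8 in the Gip window and Sergef in the Tph1 window. CGTCA contains a CpG. Over all RefSeq starts, it was found at 35.5% of CpG-rich and 13.2% of CpG-poor starts. The part of CpG content in the count of sites was not tested. The A+T content of the sites was 30.8% to 57.7% with a median of 40.3%, and the mean of all peaks was 45.2% to 46.5% per list. A match is a run of letters and not a bound factor.

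Genes that act with these products were read the same way. Of 12 transcription factors of the lineage, 4 had a promoter peak in all 6 lists (Pax6, Lmx1a, Foxa1 and Foxa2), 6 in some and 2 (Neurod1 and Pax4) in none, against 44.5% of all genes in every list and 38.3% in none. Within 500 bp on either side of a start the counts were again 4, 6 and 2, with Rfx6 in place of Lmx1a among the 4, but only 1 of 12 RefSeq starts, held for 9 of these factors, had such a summit in every list. Neurog3, which commits progenitors to the lineage, was called in 2 cKO lists and no WT list by either rule. Insm1, a factor of its early progeny, had a promoter peak in 1 WT and 1 cKO list. Within 500 bp of a start it had a summit in 3 WT lists and 1 cKO list. Nkx2-2 and Isl1, which act in subtype choice, each had a promoter peak in 2 WT and 3 cKO lists. Within 500 bp of a start, Nkx2-2 had a summit in 2 WT and 2 cKO lists and Isl1 in 2 WT and 3 cKO lists. Among the 8 factors with a window peak in every list, Foxa1 alone did not overlap between genotypes (60.9, 56.8 and 53.1 in WT 1 to 3 and 39.7, 52.3 and 39.3 in cKO 1 to 3, exact permutation p = 0.1), and 6.83% of all genes were lower in this way.

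Of 12 genes for peptide processing and granules, 3 had a promoter peak in all 6 lists and 6 in none. Over all genes the shares were 44.5% and 38.3%. Those in every list were Scg5, Vgf and Syp, which encodes the vesicle protein synaptophysin. The convertase Pcsk1, its inhibitor Pcsk1n and the granins Scg2 and Scg3 had none in any list, although Pcsk1 had a summit within 500 bp of a start in 3 WT and 2 cKO lists, and its relative Pcsk2 had one in 2 cKO lists. Within 500 bp of a start, 5 of the 12 genes had a summit in every list and 5 in none, against 54.7% and 35.3% of all genes. In all 8 of the 12 genes with a window peak in every list, the genotypes overlapped. Of 6 further gut hormones, 5 (Nts, Ghrl, Insl5, Ppy and Ucn3) had no promoter peak in any list, beside 38.3% of all genes. Gast had one in 1 cKO list. Of 5 serotonin genes, Ddc, the enzyme after Tph1 in the pathway, had a promoter peak in all 6 lists and a highest window peak at 97.8 to 99.9, but it is also used outside this lineage. The vesicle transporter Slc18a1 had no promoter peak in any list, although a summit lay within 500 bp of a start in all 6 lists. Its highest window peak was at 85.7 to 96.2. Ddc and Slc18a1 were each 1 of 5 genes, beside 44.5% of all genes in every list and 38.3% in none. Maoa, which breaks serotonin down, was at 80.5, 79.7 and 81.0 in WT 1 to 3 and at 69.8, 72.8 and 67.0 in cKO 1 to 3 with no overlap (exact permutation p = 0.1, adjusted p = 0.836 over all genes), beside the same 6.83% of genes.

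**Figure D5:**
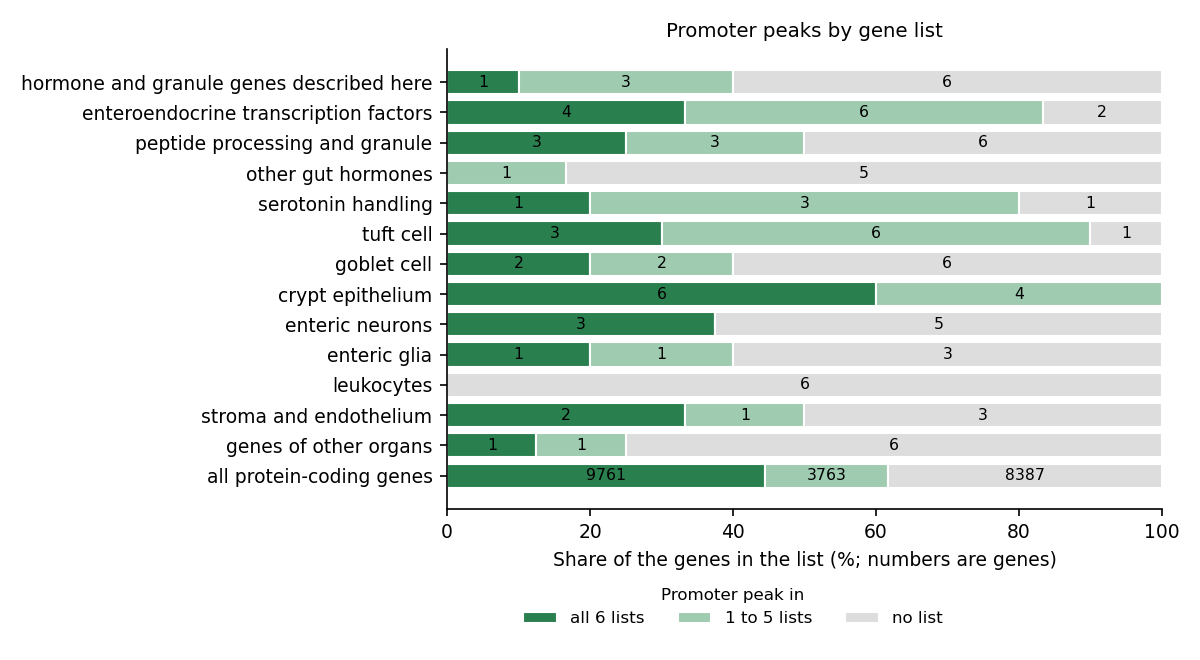
Promoter peaks by gene list. Bars give the percentage of the genes in each list with a promoter peak in all 6 lists (dark green), in 1 to 5 lists (light green) or in none (grey), with the number of genes printed in each part. The 10 hormone and granule genes have 1, 3 and 6, the crypt epithelium genes 6, 4 and 0, and all protein-coding genes 9761, 3763 and 8387.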

How the data were processed

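Per the labels and the study's methods, the authors processed the ATAC-seq reads with the nf-core ATAC-seq pipeline (BWA, bedtools and MACS2) on GRCm38, removed blacklisted regions and called narrow peaks in each sample separately, with no pooling and no control library described. The deposited lists give for each peak a score, which is 10 times the −log10 q without decimals. The authors' fold is a ratio, summit pileup over local background within 1 library, and the deposited −log10 p and −log10 q are Poisson probabilities of that pileup. Read counts were not used here.

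Autosomal, X and Y peaks were ranked within each list by fold, as a percentile. Genes came from GENCODE M21, as did the transcript starts behind the promoter counts, except where RefSeq starts are named. Sequences came from RefSeq, as did the starts used for CpG content. Both sources were on GRCm38, and RefSeq symbols matched for all 10 genes. Neighbouring summits within 700 bp of the next formed a site. The summit pileup is the whole number that satisfies fold as (pileup + 1) / (background + 1) and the −log10 p, within 0.005 or 0.05% of it, where −log10 p was at most 100. It was found for 81 of 87 window peaks, and for 100% of 1000 peaks sampled per list, and its exact 95% Poisson intervals cover counting error only. The highest fold percentile of each window was compared by exact two-sided permutation of the 6 genotype labels (20 assignments) and by limma 3.58.1 on normal scores, with Benjamini-Hochberg adjustment over 15457 genes. Both were tested on simulated data. The 10 genes, the gene lists and the tests were chosen with earlier results of these data known. The rule named all 10 genes in full, neighbours whose promoter held a window peak and, of the enteroendocrine lists, genes with a promoter peak in all 6 lists or in none. Other genes (Neurog3, Insm1, Nkx2-2, Isl1, Pcsk2, Gast, Maoa, Tnnt2 and those of tuft and goblet cells) were named after their values were seen. Some genes of the lists are counted but not reported by name here. Alternatives were a −log10 q of at least 5, equal list length, windows of 5 and 25 kb, other promoter definitions, ranking by −log10 q, leaving out each list and a replicate block. The covering of a promoter by a peak and the RefSeq starts were added after seeing the data. Scripts ran under Python 3.11.15 with pandas 2.3.3, scipy 1.17.1, pysam 0.24.0 and R 4.3.3.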

Additional observations from a re-analysis of the deposited data

How the results depend on the processing

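The number of the 10 genes with a promoter peak in all 6 lists was 1, and became 0 with a −log10 q of at least 5, 0 with lists of equal length, 0 with the gene's 5′ end as the only start and 2 where a peak had only to cover the promoter (Sct and Tac1). Leaving out 1 list gave 1 to 2, with 2 (Tac1 and Cck) without WT 1. The number with a window peak in every list was 6, and 4 to 8 under the alternatives. The number whose genotypes did not overlap was 1 (Tph1), became 2 with windows of 25 kb, 0 with promoters of other genes left out, and was 1 to 4 when a list was left out, with 2 without WT 1 (Tac1 and Tph1), 2 without cKO 1 (Gip and Tph1) and 4 without cKO 2 (Sct, Pyy, Tac1 and Tph1). Over all genes that share, lower and higher in cKO, went from 6.83% and 4.02% to 14.2% and 5.68% without WT 1, to 10.8% and 6.21% without cKO 1 and to 24.2% and 15.2% without cKO 2. Differences in percentile points turned sign for Sct (1.82 with windows of 25 kb and 1.70 ranked by −log10 q), for Gip (−5.18 with promoters of other genes left out), for Pyy (−2.75 without WT 1) and for Chga (2.89 without WT 3 and 4.35 without cKO 2). Over the lists left out 1 at a time, the range was −16.0 to 4.35 for Chga, 2.88 to 10.5 for Gip, −2.75 to 17.3 for Pyy, −11.9 to −2.85 for Sct, −11.8 to −5.28 for Tac1 and −2.46 to −1.06 for Tph1. Ranked by −log10 q, the difference was −1.34 for Tph1 (exact permutation p = 0.7) and 8.37 for Gip (exact permutation p = 0.1). The cause of these changes was not tested. Of 122 comparisons with an alternative, 106 kept the direction of a difference or stayed within 1.5 times a count. That number is not a count of independent checks. The differences under the replicate block could not change, and counting any overlap of a peak with the window changed no value. A gene that lost its peak in a list under an alternative was left out of that comparison.

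Replicate numbers are shared between genotypes, but samples of the same number did not deviate together: over 15457 genes the correlations of their deviations from the genotype means were −0.40, −0.08 and 0.15, while WT 1 with cKO 2 gave 0.39 and WT 3 with cKO 1 gave 0.41. With the number as a replicate block, the paired differences were −8.38, −7.41, −5.02, −1.92, 6.18 and 8.18 as before, and the exact sign-flip p-values were 0.25 to 1, where 0.25 is the smallest that 3 pairs allow. An own-promoter peak in all lists existed only for Tac1, where its percentile in place of the highest peak gave −3.28. Peaks outside other genes' promoters had a median pileup of 19 fragments, which limits how small a difference the lists can show.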

Other observations

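Other rare lineages of the crypt were read by the same rule. Of the tuft cell genes, Trpm5, the cation channel of taste-like signalling, and Pou2f3, the factor that defines the lineage, had a promoter peak in all 6 lists, and Sh2d6 had none in any. The counts were 3 of 10 in every list and 1 in none, against 44.5% and 38.3% of all genes. The highest Sh2d6 window peak was at 71.9, 81.4 and 85.9 in WT 1 to 3 and at 89.5, 89.4 and 91.9 in cKO 1 to 3 (exact permutation p = 0.1), which is 1 of 7 genes tested against 4.02% of all genes that ranked higher in every cKO list.

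Of 10 goblet cell genes, Fcgbp and Spink4 had a promoter peak in all 6 lists, Agr2 and Creb3l1 in some and 6 in none. Over all genes, 44.5% had one in every list and 38.3% in none. The mucin gene Muc2 had no peak in its window in any list, as Gcg had. Atoh1, which commits progenitors to the secretory lineages, had its highest window peak at 69.8, 63.7 and 67.5 in WT 1 to 3 and at 51.1, 51.2 and 55.9 in cKO 1 to 3 (exact permutation p = 0.1), 1 of 9 genes tested against 6.83% of all genes that ranked lower in every cKO list. Sh2d6, Muc2 and Atoh1 were singled out after their values were seen.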
